A study of Mus musculus with 12 samples.

Results

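Plasmacytoid dendritic cells (pDCs) were compared with precursors of conventional dendritic cells (pre-cDCs) across the transcriptome, in 6 of 12 bulk RNA libraries from mouse bone marrow. All 12 came from healthy adult wild-type C57BL/6 mice of both sexes, with 3 libraries for each of 4 populations sorted from Lin- Flt3+ CD11c+ marrow. Pre-cDCs were sorted as Siglec-H- B220lo cells low in MHC class II and Sirpα, and pDCs as Siglec-H+ B220hi CCR9hi cells. Between them stood 2 Siglec-H+ fractions, CCR9lo B220lo (lo-lo) and CCR9lo B220hi (lo-hi), which served here as a second, separate pair. The sort rested on a few surface proteins, so each library is a gate and not a proven pure lineage, and the study's general methods also mention pooled marrow for precursor sorts.

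The populations of the 12 wells were not taken from the deposited labels. These labels contradict the source data published with the study. The members of each population were instead chosen by the measured levels of 28 transcription factors (TFs), and each well was given the population and replicate whose order of the 28 TFs it matched. Each published profile had 1 well with 0 of 378 TF pairs in a different order, whereas the next-best well for that profile differed in at least 7 pairs. By this match, wells A4, A8 and A12 were pDC replicates 1, 2 and 3, and wells A1, A5 and A9 were pre-cDC replicates 1, 2 and 3. Of the 12 labels, 4 named the matched population. Among the 6 wells compared here, only A1 and A12 did so. A4 and A5 carried the lo-lo label, and A8 and A9 the lo-hi label. With the labels taken at face value, 0 genes differed between pDCs and pre-cDCs at an adjusted p under 0.01, by edgeR and with 344 genes at an unadjusted p under 0.05. The 28 TFs chose the wells and were therefore not tested.

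The 6 libraries held 2152493 to 5995971 counts. Values are CPM (counts per 1000000 counts of a library) after scaling by library composition, and 3 counts equal 0.511 to 1.49 CPM in these libraries. Mitochondrial genes took 3.0% to 12.3% of the counts, with the lowest and the highest share both among the pre-cDC libraries. The rRNA-overlapping gene Gm42418 reached 7.39% in pre-cDC replicate 2. Sex-linked genes set replicate 3 of every population apart. Xist, the RNA of the inactive X chromosome, was at 218 and 298 CPM in pre-cDC replicates 1 and 2 and at 29.4 CPM in replicate 3, and the pDC libraries had 334, 596 and 44.3 CPM. The Y-linked Eif2s3y was at 40.9 CPM (pre-cDC) and 58.6 CPM (pDC) in replicate 3 and at 1.17 to 3.47 CPM elsewhere among the 6. Since 1 bulk value joins all cells of a gate, fewer cells of a type and less RNA per cell cannot be told apart.

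pDCs are the dendritic cells that sense viral nucleic acid in endosomes through Toll-like receptors and answer with large amounts of type I interferon. Their fate depends on the E protein TCF4 (E2-2), and they share features with lymphocytes and plasma cells, among them a secretory cytoplasm. Pre-cDCs are cycling progenitors that leave the marrow and give rise to the conventional dendritic cells of the tissues, which take up antigen and present it to T cells. ID2, which blocks E proteins, is known for holding the conventional side.

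Of 21754 genes in the table, 15293 averaged 1 count or more across the 12 wells. The lowest mean kept was 1 and the highest left out was 0.917. After the 28 TFs were set aside, 3307 of 15265 genes (21.7%) differed at an adjusted p under 0.01 (edgeR quasi-likelihood test, Benjamini-Hochberg adjustment over all genes, n = 3 against 3). In pDCs 1728 genes were higher (11.3% of those tested) and 1579 were lower (10.3%). The counts of list members given below are to be read beside these shares. Changes were often large. More than 8-fold separated the populations at 204 of the higher and 185 of the lower genes, and the median log2 fold change of the called genes was 1.41 and -1.57. The 3 pDC libraries did not overlap the 3 pre-cDC libraries at 3261 of the 3307 genes, against 39.4% of all genes tested. The study gives its replicates as separate mice, but no label ties a library to a mouse. The p-values therefore measure only the spread between these libraries, which may be technical in part. Replicate 3 differed from replicates 1 and 2 in sex-linked genes, and whether replicates 1 and 2 were different animals was not tested.

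**Figure D1:**
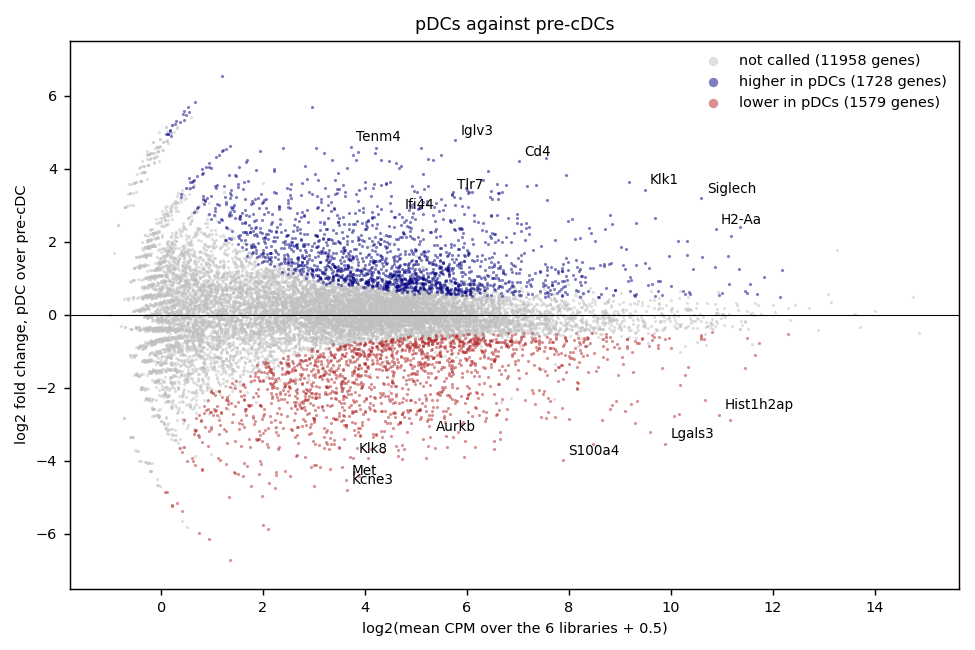
Log2 fold change of pDCs over pre-cDCs for each gene (vertical axis) against the log2 of its mean CPM over the 6 libraries plus 0.5 (horizontal axis). Blue points are the 1728 genes called higher in pDCs and red points the 1579 called lower, grey points were not called, and the 28 TFs are left out. Siglech and H2-Aa stood among the most abundant genes that were higher, and Lgals3 and Hist1h2ap among the most abundant that were lower.

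The 28 TFs are given as a description, since their order chose the wells. Tcf4 was at 579, 727 and 352 CPM in the pre-cDC libraries and at 1711, 2669 and 3164 CPM in the pDC libraries. Spib, an ETS factor of pDCs and B cells, was at 90.5, 96.2 and 84.5 against 546, 472 and 410 CPM. Irf7, which drives interferon genes, was at 102, 94.7 and 71.3 against 549, 412 and 215 CPM. All 3 were higher in every pDC library than in any pre-cDC library. Batf3 and Zbtb46, factors of conventional dendritic cells, lay at the other end. Batf3 was at 15.5, 17.4 and 21.6 CPM in pre-cDCs and at 0.511, 1.58 and 1.30 CPM in pDCs, and Zbtb46 was at 23.1, 16.9 and 19.6 against 1.87, 4.11 and 2.17 CPM. Id2 was at 50.6, 49.6 and 59.1 against 15.5, 13.3 and 14.3 CPM, and Spi1 (PU.1) at 133, 109 and 151 against 29.5, 19.6 and 16.1 CPM. Klf4 spread most widely in pDCs, at 12.4, 26.2 and 65.5 CPM, below 172 to 203 CPM in pre-cDCs. The TFs named so far are a selection, and not all 28 TFs parted with pDC factors higher. Cbfa2t3 was lower in every pDC library, at 321, 295 and 228 against 143, 220 and 213 CPM. The pDC and pre-cDC libraries overlapped at Zeb2, Irf2, Irf3, Irf5, Nfil3 and Notch4.

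Among the 9 tested E proteins, Id proteins and partners outside the 28 TFs, 3 were higher and 2 lower in pDCs. Over all genes tested the shares were 11.3% and 10.3%, and a list this short says little beside them. Id3 was at 6.15, 5.45 and 8.78 CPM in pre-cDCs and at 49.9, 28.7 and 30.4 CPM in pDCs (log2 fold change 2.42 ± 0.29 SE, adjusted p = 5.9e-07). An Id inhibitor was thus higher in all 3 pDC libraries than in any pre-cDC library. Tcf12, the E protein HEB, was at 34.0, 38.2 and 20.9 against 71.7, 112 and 117 CPM (1.69 ± 0.21, adjusted p = 6.99e-07). The third higher member was Lmo2, whose call was lost without pDC replicate 2 (adjusted p = 0.0145), pre-cDC replicate 1 (0.0107) or pre-cDC replicate 3 (0.0137). Id1 and Lyl1 were lower, by -3.005 ± 0.58 and -1.54 ± 0.19. Tcf3, which encodes E2A, was at 30.4 to 37.5 CPM in all 6 libraries and was not called (adjusted p = 0.733).

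Of 20 surface proteins known for pDCs, 19 were higher in pDCs, 0 were lower, and the median log2 fold change was 2.64, against 0.0477 over all genes tested. Siglech, Ccr9 and Ptprc (B220) belong to the sort gates, so their differences are no finding. Siglech was at 276, 443 and 206 CPM in pre-cDCs and at 2537, 2844 and 2992 CPM in pDCs. The co-receptor gene Cd4 was at 11.7, 21.3 and 8.45 against 268, 230 and 235 CPM (log2 fold change 4.20 ± 0.33, adjusted p = 8.92e-08). No pre-cDC library came near a pDC library at Cd4. Slamf9 was at 20.8, 39.2 and 11.8 against 299, 271 and 220 CPM (3.51 ± 0.35, adjusted p = 5.32e-06), and the lectin-like receptor Klra17 at 15.5, 24.8 and 15.2 against 228, 182 and 150 CPM (3.37 ± 0.22, adjusted p = 2.02e-11). Both are receptors that were low in every pre-cDC library. Ly6c2 was the member that did not pass, at 2011 to 2332 CPM in pre-cDCs and 2376 to 3225 CPM in pDCs (adjusted p = 0.078). Its libraries did not overlap.

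Of 18 tested intracellular and secreted genes of pDCs, 15 were higher and 0 lower, with a median log2 fold change of 1.91. Ctsl, the lysosomal protease cathepsin L, was at 76.1, 116 and 69.6 CPM in pre-cDCs and at 1475, 962 and 778 CPM in pDCs (3.63 ± 0.23, adjusted p = 1.19e-10). Pacsin1, an adaptor of membrane traffic, was at 17.9, 21.8 and 12.5 against 213, 217 and 168 CPM (3.54 ± 0.20, adjusted p = 4e-12). Both genes were clear of overlap. Hsd11b1, which regenerates active glucocorticoid, was at 12.6, 17.4 and 5.07 against 139, 74.9 and 95.4 CPM (3.20 ± 0.44, adjusted p = 0.000238). Cox6a2, a muscle-type subunit of cytochrome c oxidase, was at 216, 271 and 198 against 1684, 1343 and 1233 CPM (2.64 ± 0.16, adjusted p = 9.23e-12). It was the lone member called higher among 78 nuclear oxidative phosphorylation subunits. Of these, 11 were called lower, not far from the 10.3% of all genes tested, or 18 with the replicate block. Only 9 of the 78 subunits had a fold above 0. The median log2 fold change of this list was -0.34, against 0.0477 over all genes tested.

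**Figure D2:**
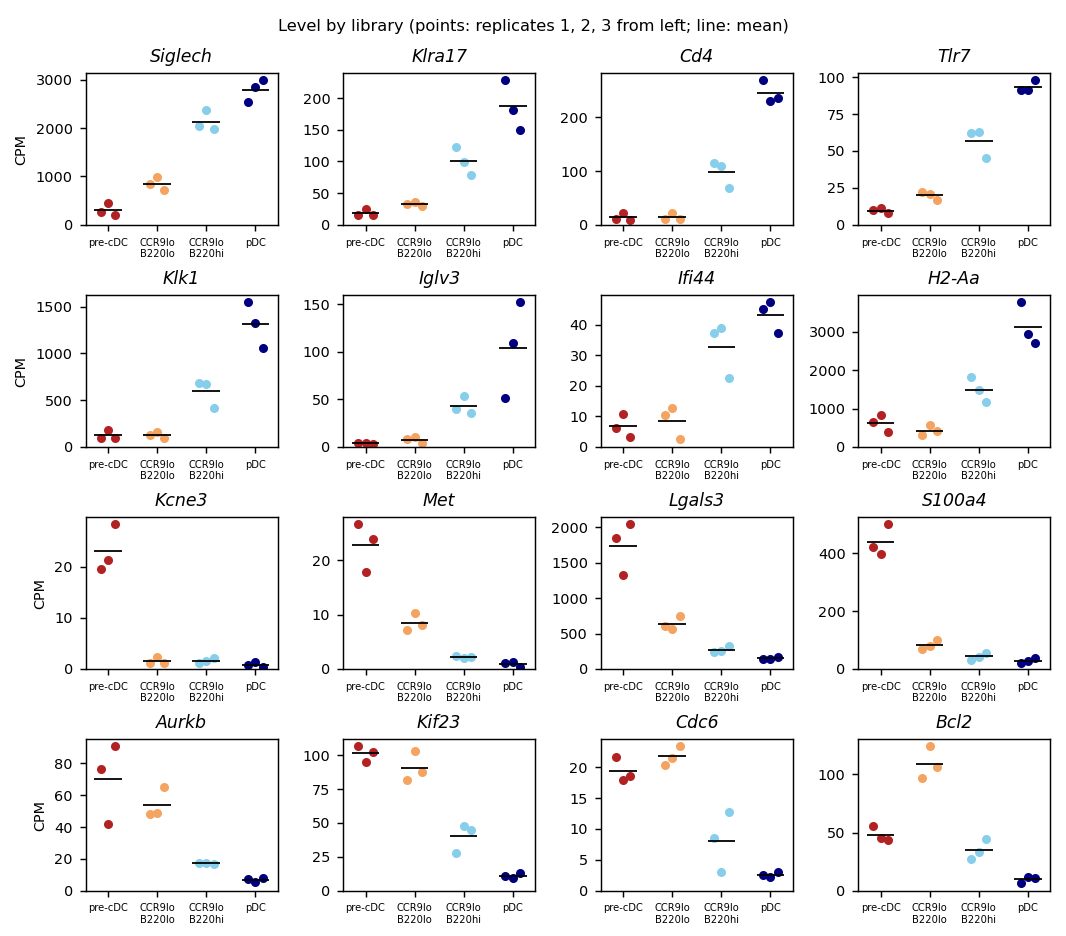
CPM (vertical axis, from 0) of 16 genes in the 12 libraries by population (horizontal axis), with replicates 1, 2 and 3 from left to right and the mean as a line. In pDCs, Siglech, Klra17, Cd4, Tlr7, Klk1, Iglv3, Ifi44 and H2-Aa lay above all pre-cDC libraries and the other 8 genes below them, with lo-hi between pre-cDCs and pDCs in most panels.

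Among genes ranked by size of change alone, with at least 20 CPM in the higher population, none of the 11 leading genes on the pDC side was on a pDC list. The order was Iglv3, Tenm4, Fyb2, Klk1b5, Klk1b3, B3galnt1, D13Ertd608e, Ccdc162, Olfr164, Nrxn2 and Scn3a, with log2 fold changes from 4.78 down to 4.22. Tenm4, a teneurin known from neural adhesion (GRCm38 chr7:96171246-96911093), was at 0.586, 0.992 and 1.35 CPM in pre-cDCs and at 19.8, 27.5 and 26.0 CPM in pDCs (4.60 ± 0.40, adjusted p = 1.43e-09). Its pre-cDC values were near the level of 3 counts. Nrxn2, the presynaptic neurexin, was at 1.46, 2.98 and 1.69 against 32.2, 45.5 and 32.5 CPM (4.23 ± 0.34, adjusted p = 4.05e-10), and Scn3a, a voltage-gated sodium channel, at 0.878, 1.98 and 1.35 against 15.8, 31.0 and 31.2 CPM (4.22 ± 0.41, adjusted p = 1.17e-08). These genes known from nerve cells stood well above the level of 3 counts in every pDC library and near it in every pre-cDC library. B3galnt1, a glycosyltransferase of globoside synthesis, was at 1.17, 0.496 and 1.69 against 31.8, 19.0 and 23.9 CPM (4.37 ± 0.34, adjusted p = 2.24e-10). Fyb2, an adaptor of T cell signalling, was at 0.586, 2.48 and 1.69 against 41.2, 40.1 and 21.7 CPM (4.56 ± 0.85, adjusted p = 0.00286). The Fyb2 call was lost without pDC replicate 1 (adjusted p = 0.0109), without pre-cDC replicate 1 (0.0172) or without pre-cDC replicate 3 (0.0183).

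Some leading genes were neighbours in the genome, which was noticed after their values were seen. On GRCm38 chromosome 16, Iglc2, Iglv3, Iglv2, Olfr164 and Olfr165 follow each other on the minus strand, and all 5 were higher in pDCs, of 7 genes tested there. Iglv2 was low, at 0 CPM in every pre-cDC library and at 1.36, 2.84 and 0.868 CPM in pDCs, the last value below 3 counts. Its call was lost without pDC replicate 2 (adjusted p = 0.02), pre-cDC replicate 1 (0.0217) or pre-cDC replicate 3 (0.015). Iglv3, an immunoglobulin lambda variable segment (chr16:19241207-19241690), was at 4.10, 4.46 and 2.70 CPM in pre-cDCs and at 51.8, 109 and 152 CPM in pDCs (4.78 ± 0.48, adjusted p = 1.01e-05). The constant segment Iglc2 was at 19.9, 15.4 and 10.5 against 184, 147 and 151 CPM (3.39 ± 0.29). Olfr164, annotated as an odorant receptor, was at 3.51, 6.94 and 2.03 against 45.5, 65.4 and 115 CPM (4.24 ± 0.51, adjusted p = 7.13e-05), and Olfr165 at 0.586, 2.48 and 1.35 against 14.1, 24.0 and 29.9 CPM (4.01 ± 0.53). Iglv3, Olfr164 and Olfr165 had their lowest pDC value in replicate 1 and their highest in replicate 3, and Iglc2 did not. Iglv1, farther along the same locus, was at 0 to 2.98 CPM in the 6 libraries and was not called (adjusted p = 0.978). Of 13 tested B cell genes, 2 were higher (Dntt and Ighm) and 1 was lower (Cd22). These counts are near the shares of all genes tested, 11.3% higher and 10.3% lower.

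The kallikrein cluster on chromosome 7 gave the other run of neighbours. Of 11 tested Klk1 and Klk1b genes, which encode serine proteases of tissue kallikrein type, 8 were higher in pDCs and 0 lower. Klk1 (chr7, start 44225360) was at 92.2, 185 and 91.5 CPM in pre-cDCs and at 1548, 1323 and 1055 CPM in pDCs (3.42 ± 0.33). Klk1b27 was at 8.49, 14.9 and 8.78 against 181, 162 and 133 CPM (3.94 ± 0.29), and Klk1b3 at 4.10, 4.96 and 3.38 against 107, 87.2 and 59.4 CPM (4.38 ± 0.28, adjusted p = 2.24e-11). No pDC library overlapped a pre-cDC library at any of these 3 genes. Klk1b22 had 0 counts in all 3 pre-cDC libraries, which allows up to 1.49 CPM, and was at 3.41 to 3.90 CPM in pDCs. Members of this family are near-identical copies, so reads may have been split among them and the value of each one is uncertain. Klk8, a kallikrein at the far end of the cluster, went the other way, at 21.1, 21.8 and 31.1 against 1.70, 0.948 and 2.17 CPM (-3.93 ± 0.36, adjusted p = 2.92e-09).

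Of 18 tested members of endosomal nucleic acid sensing, 4 were higher in pDCs and 1 was lower, beside 11.3% and 10.3% of all genes tested. The median log2 fold change was 0.41. Tlr7, the receptor for single-stranded RNA, was at 9.95, 11.4 and 7.77 CPM in pre-cDCs and at 91.5, 91.0 and 98.1 CPM in pDCs (3.28 ± 0.20, adjusted p = 8.44e-12). The 3 pDC libraries lay close to each other and far above the pre-cDC libraries. Pld4, a nuclease of the endolysosome, was at 465, 534 and 492 against 1841, 1433 and 1244 CPM (1.60 ± 0.15, adjusted p = 4.65e-09), and Unc93b1, which escorts the receptors to the endosome, at 415, 367 and 426 against 922, 748 and 674 CPM (0.96 ± 0.15, adjusted p = 1.41e-05). The fourth was the chaperone Hsp90b1. Tlr13, which senses bacterial rRNA, was lower (-2.21 ± 0.64, adjusted p = 0.00952), at 0 to 3.22 CPM in the 6 libraries. Its call was lost without pDC replicate 1 (adjusted p = 0.058), pDC replicate 3 (0.0302), pre-cDC replicate 1 (0.0596) or pre-cDC replicate 2 (0.018). Of the 8 surface Toll-like receptors and co-receptors, Tlr5 and Cd180 were higher and Tlr1, Tlr2 and Cd14 were lower. The Tlr5 call was lost without pre-cDC replicate 1 (adjusted p = 0.0103), without pre-cDC replicate 3 (0.0184) and with thinned counts (0.0314). Tlr2, a receptor for bacterial lipoprotein, was at 21.4, 16.9 and 18.9 against 5.79, 6.63 and 7.38 CPM (-1.57 ± 0.23, adjusted p = 7.92e-06).

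Of 35 tested interferon-stimulated genes, 15 were higher in pDCs and 1 was lower, with a median log2 fold change of 0.88. Ifi44 was at 6.15, 10.9 and 3.38 CPM in pre-cDCs and at 45.1, 47.4 and 37.3 CPM in pDCs (2.75 ± 0.46, adjusted p = 0.000692). Ifi213, of the family of DNA-binding interferon-inducible proteins, was at 1.46, 1.98 and 1.69 against 11.2, 12.3 and 8.68 CPM (2.67 ± 0.40, adjusted p = 7.07e-06), and Ifit2 at 2.63, 4.46 and 1.69 against 15.8, 11.1 and 9.98 CPM (2.18 ± 0.36, adjusted p = 3.78e-05). In each of these genes pre-cDC replicate 2 was the highest pre-cDC library, below all pDC libraries. Stat2, a factor that carries the interferon signal, was higher by 2.03 on the log2 scale. Other members were not called, among them Irf9, at 66.9 to 75.9 CPM in pre-cDCs and 74.2 to 90.9 CPM in pDCs (adjusted p = 0.368). The lower member was Cmpk2, whose call was lost without pre-cDC replicate 1 (adjusted p = 0.0164) and with counts thinned to the smallest total (0.0268). The number of higher members was 9 without pDC replicate 2. Of the receptor genes that start this signal, Ifnar1 and Ifnar2 were both higher (1.45 and 0.66), whereas the interferon gamma receptor genes Ifngr1 and Ifngr2 were both lower (-1.69 and -0.52). The Ifngr2 call was lost when any 1 of the 6 libraries was left out (adjusted p from 0.0103 to 0.0254), and in a fit of the 6 libraries alone the calls of Ifngr2 (0.0397) and Ifnar2 (0.0148) were lost.

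MHC class II genes were higher in pDCs, and since low MHC class II was part of the pre-cDC gate this difference is no finding. H2-Aa was at 641, 837 and 385 CPM in pre-cDCs and at 3785, 2940 and 2701 CPM in pDCs. In all, 6 of 12 members were higher (H2-Eb1, Cd74, H2-Aa, H2-Ab1, H2-Oa and Ciita) and 1 was lower, March1, a ligase that removes MHC class II from the surface. The number of lower members was 3 without pDC replicate 1 or without pre-cDC replicate 2. H2-DMa, which loads peptide, was at 702, 524 and 868 against 565, 431 and 384 CPM (-0.60 ± 0.18, adjusted p = 0.0124, and 0.0023 with the replicate block). Ciita, the master regulator of the pathway, was at 3.22, 5.95 and 4.39 against 12.8, 10.1 and 12.6 CPM (1.44 ± 0.30, adjusted p = 0.000525), and its call was lost without pre-cDC replicate 1 (adjusted p = 0.0103). MHC class I was no part of a gate. There 7 of 16 members were higher and 0 lower, among them H2-K1 at 808, 913 and 612 against 2546, 2358 and 2116 CPM (1.59 ± 0.16, adjusted p = 2.03e-08) and B2m at 2527, 2192 and 2426 against 5932, 4683 and 4094 CPM (1.04 ± 0.15, adjusted p = 5.16e-06). Nlrc5, the class I counterpart of Ciita, was higher by 1.49 ± 0.25, whereas the immunoproteasome subunit gene Psmb8 was at 423 to 709 and 477 to 741 CPM and was not called (adjusted p = 0.853).

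The genes of the endoplasmic reticulum and the unfolded protein response were higher at 14 of 32 members and lower at 0, with a median log2 fold change of 0.46. Xbp1, the factor of secretory cells, was at 109, 109 and 123 CPM in pre-cDCs and at 340, 254 and 201 CPM in pDCs (1.23 ± 0.17, adjusted p = 2.7e-06). Edem2, of the disposal of misfolded glycoproteins, was at 53.6, 38.2 and 51.3 against 167, 121 and 97.6 CPM (1.43 ± 0.20, adjusted p = 2.18e-06). Replicate 1 was the highest pDC library at both. The number of higher members was 9 without pDC replicate 2, and 8 in a fit of the 6 libraries alone. Of 4 tested plasma cell genes, Mzb1 (13.2, 29.8 and 10.5 against 219, 145 and 109 CPM, 3.22 ± 0.33) and Sdc1 were higher. Jchain, at 2.03 to 32.7 CPM in the 6 libraries, was not called (adjusted p = 0.825). Sterol enzymes were higher at 11 of 22 members and lower at 0, with a median of 0.80. Msmo1 was at 37.5, 33.2 and 37.5 against 129, 93.2 and 79.4 CPM (1.48 ± 0.18, adjusted p = 5.08e-07), and Fdps, of the same pathway, at 118 to 178 and 101 to 218 CPM (adjusted p = 0.998).

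**Figure D3:**
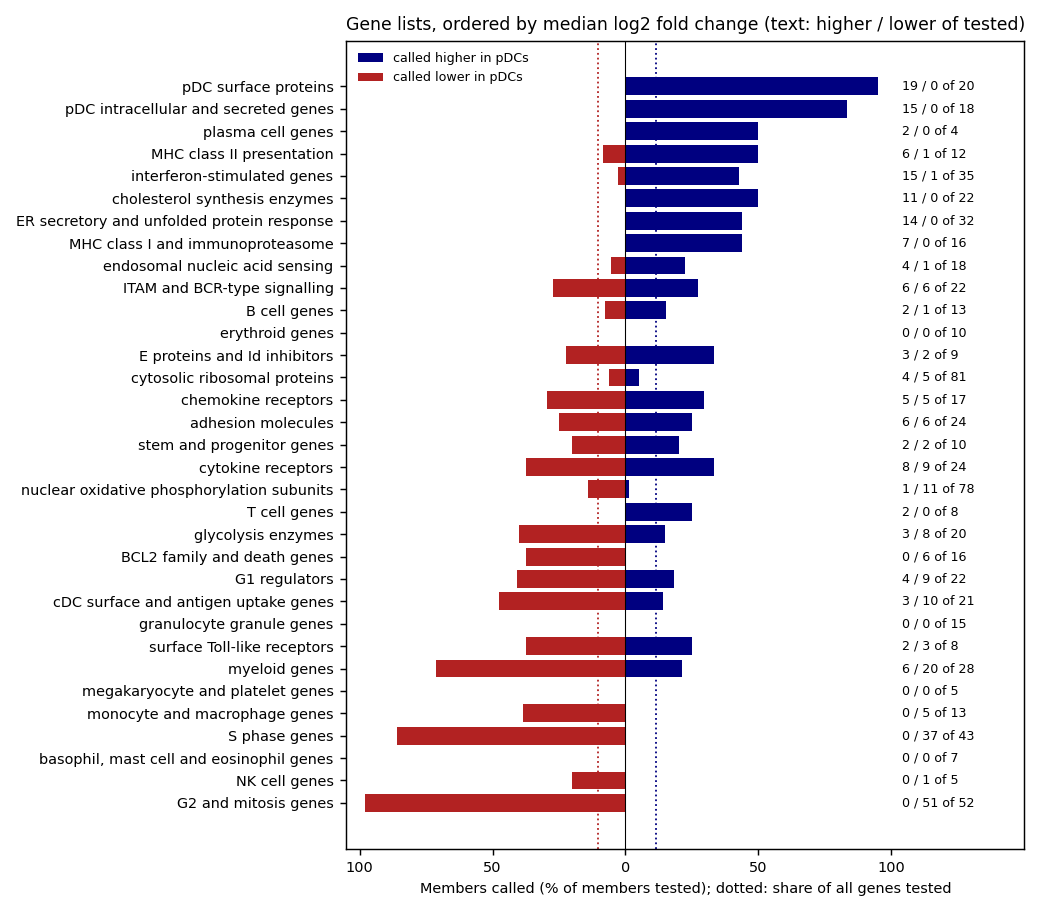
Share of the tested members of each gene list called higher (blue, to the right) or lower (red, to the left) in pDCs, in percent of the members tested, with the counts at the right and lists ordered by their median log2 fold change. Dotted lines mark the shares over all genes tested, 11.3% higher and 10.3% lower. The pDC lists stood at the top with 19 of 20 and 15 of 18 members higher, and the G2 and mitosis genes at the bottom with 51 of 52 lower.

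Most genes of the S, G2 and M phases of the cell cycle were lower in pDCs. Of 52 tested genes of G2 and mitosis, 51 were lower in pDCs and 0 higher, with a median log2 fold change of -2.48, and of 43 genes of S phase 37 were lower and 0 higher, with a median of -1.90. These shares stand beside 10.3% of all genes tested. Summed over the list, G2 and mitosis genes were at 5335 to 6279 CPM in pre-cDCs and at 1374 to 1654 CPM in pDCs. Aurkb, a mitotic kinase, was at 76.7, 42.1 and 90.9 CPM in pre-cDCs and at 7.49, 5.37 and 7.81 CPM in pDCs (-3.35 ± 0.25, adjusted p = 1.59e-10). Kif23, the kinesin of the central spindle, was at 107, 94.7 and 102 against 10.9, 9.48 and 13.02 CPM (-3.20 ± 0.21, adjusted p = 1.86e-11), and Ttk, of the spindle checkpoint, at 18.7, 20.3 and 24.0 against 1.70, 2.84 and 3.47 CPM (-3.08 ± 0.27, adjusted p = 2.23e-09). No library of one population reached the other at these genes. The member that was not called was Ctcf, at 61.8 to 85.8 and 79.0 to 113 CPM (adjusted p = 0.0428). Among S phase genes, Dscc1, of the clamp loader for sister cohesion, was at 17.0, 9.92 and 15.5 against 0.852, 0.632 and 0.868 CPM (-4.12 ± 0.40, adjusted p = 1.03e-08). Cdc6, which licenses origins, was at 21.7, 17.9 and 18.6 against 2.55, 2.21 and 3.04 CPM (-2.91 ± 0.32, adjusted p = 5.93e-08), and Cdca7 at 53.9, 34.7 and 45.3 against 6.64, 5.05 and 5.21 CPM (-2.95 ± 0.22, adjusted p = 8.94e-11). Histone genes were looked up after the values were seen, and 52 of 56 tested histone cluster genes (Hist1 to Hist4) were lower and 0 higher. Among the lower ones were Hist1h2aj, Hist1h2al and Hist3h2bb-ps, which are annotated as pseudogenes. How completely the libraries capture histone transcripts was not tested. Hist1h2ap, the most abundant, had a mean of 3436 CPM in pre-cDCs and 514 CPM in pDCs. These copies are nearly identical, and the split of reads between them is uncertain.

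The promoters of the cycle genes are shown because the list shares short sequences that the choice of genes did not use. RefSeq start sites on GRCm38.p6 gave a window of 250 bases before to 50 bases after the start for 10033 of the 15265 genes, and 6 motifs were searched on both strands. The CHR element TTTGAA, known from genes of mitosis, was in 32 of 46 windows of G2 and mitosis genes (69.6%) and in 12.3% of all windows. The E2F site TTCCCGC was in 14 of 31 windows of S phase genes (45.2%) and in 8.41% of all windows, and in 0 of the 46 G2 and mitosis windows. None of the 6 motifs contains another, and a match is a description and not a site. Kif23 (chr9:61946750-61947049, minus strand) and Ttk (chr9:83834439-83834738, plus strand) were the first cycle genes by size of change with a window. Cdca7 (chr2:72475969-72476268, plus strand) and Cdc6 (chr11:98907901-98908200, plus strand) were the first S phase genes with an E2F match. The RefSeq start of Cdc6 lay 350 bases from its GENCODE start, which falls outside the printed window. Capitals mark motif matches on either strand, so that TTCAAA is TTTGAA and GCGGGAA is TTCCCGC read from the other strand, and CAGCTG is an E-box.
Kif23: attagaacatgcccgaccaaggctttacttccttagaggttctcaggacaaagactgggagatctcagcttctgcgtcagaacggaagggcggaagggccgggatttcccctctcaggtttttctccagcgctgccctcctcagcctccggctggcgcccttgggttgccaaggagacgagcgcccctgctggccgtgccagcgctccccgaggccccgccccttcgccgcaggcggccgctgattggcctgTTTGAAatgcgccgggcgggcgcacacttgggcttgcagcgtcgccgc
Ttk: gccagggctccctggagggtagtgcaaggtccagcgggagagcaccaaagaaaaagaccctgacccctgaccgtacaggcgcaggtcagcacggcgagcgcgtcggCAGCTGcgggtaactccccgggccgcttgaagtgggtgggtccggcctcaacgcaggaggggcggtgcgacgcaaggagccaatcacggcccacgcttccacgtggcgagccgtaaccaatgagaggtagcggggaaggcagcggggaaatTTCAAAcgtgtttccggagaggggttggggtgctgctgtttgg
Cdca7: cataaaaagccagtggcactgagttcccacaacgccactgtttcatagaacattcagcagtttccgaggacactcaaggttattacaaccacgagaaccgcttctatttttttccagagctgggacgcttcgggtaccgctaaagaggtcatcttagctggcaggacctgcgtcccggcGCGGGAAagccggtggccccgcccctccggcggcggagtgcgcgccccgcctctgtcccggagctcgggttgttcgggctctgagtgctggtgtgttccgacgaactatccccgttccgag
Cdc6: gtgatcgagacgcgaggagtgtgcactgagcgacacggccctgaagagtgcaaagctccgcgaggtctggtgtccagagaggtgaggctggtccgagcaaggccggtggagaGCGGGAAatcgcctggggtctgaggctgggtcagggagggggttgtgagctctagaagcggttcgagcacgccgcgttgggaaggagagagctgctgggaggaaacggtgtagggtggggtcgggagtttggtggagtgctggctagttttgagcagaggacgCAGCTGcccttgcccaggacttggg

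Over all 1728 genes called higher in pDCs, 1272 had a window. The E-box CAGGTG, a site of E proteins, was in 20.7% of them, in 14.2% of the 1109 windows of genes called lower and in 17.4% of all windows. The E-box CAGCTG was in 16.5%, 15.7% and 14.7%. The PU.1 and Spi-B core GAGGAAGT differed little, at 3.69%, 4.06% and 3.45%. The ISRE core (GAAA, any pair of bases, GAAA), the interferon response element, was in 14 of 24 windows of interferon-stimulated genes (58.3%), in 3.93% of windows of the genes called higher and in 3.15% of all windows. Tenm4 (chr7:96170994-96171293, plus strand) and Fyb2 (chr4:104913311-104913610, plus strand) were the first genes higher in pDCs with a window, Met (chr6:17463707-17464006, plus strand) came among the first genes lower, and Stat2 (chr10:128270248-128270547, plus strand) and Ifi213 (chr1:173599223-173599522, minus strand) were the first interferon-stimulated genes with an ISRE match. Tenm4 held 1 ISRE core. Fyb2 held the E-box CAGGTG in a pair of copies shortly before its RefSeq start. The RefSeq starts of Fyb2 and Met lay 105 and 157 bases from their GENCODE starts. Kcne3 and Ifi44, the first lower gene and the first interferon-stimulated gene by size, held none of the 6 motifs in their windows and are not printed. Capitals mark matches on either strand as before.
Tenm4: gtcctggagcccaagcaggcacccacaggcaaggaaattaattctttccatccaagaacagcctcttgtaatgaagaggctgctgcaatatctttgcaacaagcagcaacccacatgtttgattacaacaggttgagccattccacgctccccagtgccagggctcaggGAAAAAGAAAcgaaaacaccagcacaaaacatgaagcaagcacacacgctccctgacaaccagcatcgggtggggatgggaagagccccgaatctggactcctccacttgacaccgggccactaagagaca
Fyb2: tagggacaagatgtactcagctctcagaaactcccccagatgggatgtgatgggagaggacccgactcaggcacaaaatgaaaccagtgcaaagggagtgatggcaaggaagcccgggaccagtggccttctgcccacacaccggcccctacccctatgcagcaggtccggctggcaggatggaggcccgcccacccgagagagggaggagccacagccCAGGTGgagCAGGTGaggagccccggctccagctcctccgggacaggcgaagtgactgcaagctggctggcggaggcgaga
Met: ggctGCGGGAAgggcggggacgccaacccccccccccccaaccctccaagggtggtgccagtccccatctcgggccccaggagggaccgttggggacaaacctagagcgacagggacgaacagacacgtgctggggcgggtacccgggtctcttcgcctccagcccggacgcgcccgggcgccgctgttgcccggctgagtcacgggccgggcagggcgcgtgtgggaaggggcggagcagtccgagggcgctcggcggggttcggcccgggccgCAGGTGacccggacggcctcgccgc
Stat2: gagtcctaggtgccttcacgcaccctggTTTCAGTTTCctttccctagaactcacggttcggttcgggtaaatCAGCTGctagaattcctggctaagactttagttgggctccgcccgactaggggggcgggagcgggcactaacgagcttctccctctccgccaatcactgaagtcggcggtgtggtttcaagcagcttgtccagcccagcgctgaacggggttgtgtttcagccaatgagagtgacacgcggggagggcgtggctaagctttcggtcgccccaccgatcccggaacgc
Ifi213: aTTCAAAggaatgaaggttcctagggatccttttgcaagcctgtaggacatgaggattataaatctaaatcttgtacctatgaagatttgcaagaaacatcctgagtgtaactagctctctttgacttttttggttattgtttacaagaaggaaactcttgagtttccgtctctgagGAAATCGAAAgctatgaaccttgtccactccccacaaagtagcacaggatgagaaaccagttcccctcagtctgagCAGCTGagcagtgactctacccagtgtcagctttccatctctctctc

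Regulators of G1 were split, with 4 of 22 higher and 9 lower. Myc was at 14.3, 15.4 and 18.2 CPM in pre-cDCs and at 1.02, 1.58 and 1.30 CPM in pDCs (-3.64 ± 0.35, adjusted p = 8.86e-09), and Ccne1, the cyclin of S phase entry, at 20.5, 16.9 and 25.3 against 2.90, 2.84 and 6.07 CPM (-2.53 ± 0.27, adjusted p = 5.04e-08). The inhibitor gene Cdkn1a was also lower (-2.09 ± 0.39, adjusted p = 0.000159). The D cyclins parted, with Ccnd1 higher (1.44) and Ccnd2 and Ccnd3 lower (-1.28 and -1.44). The antiproliferative genes Btg1 and Btg2 were higher (1.84 and 1.42), and the Btg1 call was lost without pre-cDC replicate 1 (adjusted p = 0.0123) or pre-cDC replicate 3 (0.0147). Glycolysis was lower at 8 of 20 members and higher at 3. Hk2, the inducible hexokinase, was at 191, 186 and 161 against 19.1, 19.6 and 19.5 CPM (-3.21 ± 0.17, adjusted p = 2.38e-12), whereas Ldhb was at 14.6, 24.8 and 16.6 against 158, 120 and 85.5 CPM (2.74 ± 0.25, adjusted p = 2.77e-08). The enzymes of this pathway moved in both directions.

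Of 16 tested BCL2 family and death genes, 6 were lower in pDCs and 0 higher. Bcl2, the survival gene, was at 55.3, 45.1 and 43.2 CPM in pre-cDCs and at 7.15, 11.7 and 10.8 CPM in pDCs (-2.33 ± 0.22, adjusted p = 6.88e-09), and Pmaip1 (NOXA), a killer of the same family, at 29.3, 26.8 and 38.2 against 7.32, 6.95 and 6.94 CPM (-2.14 ± 0.25, adjusted p = 2.34e-07). Genes that protect from death and genes that promote it were both among the lower ones. Bid, whose libraries overlapped, was lower by -1.02 ± 0.27 (adjusted p = 0.00732), and its call was lost without pDC replicate 2 (0.0321), pDC replicate 3 (0.0335), pre-cDC replicate 1 (0.0378) or pre-cDC replicate 3 (0.0409). Bax was at 15.9 to 24.7 and 10.4 to 21.6 CPM (adjusted p = 0.285).

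Among genes with at least 20 CPM in the higher population, those that fell most in pDCs were Kcne3, Met, Upk1b, Adora2b, Hpgd, S100a4, Cd300lg, Klk8, Pid1, Lmo1, Fut7 and Pik3r6, with log2 fold changes from -4.80 to -3.89. Kcne3, a potassium channel subunit, was at 19.6, 21.3 and 28.4 CPM in pre-cDCs and at 0.681, 1.26 and 0.434 CPM in pDCs (-4.80 ± 0.36, adjusted p = 1.57e-10). Met, the receptor of hepatocyte growth factor, was at 26.6, 17.9 and 24.0 against 1.02, 1.26 and 0.434 CPM (-4.53 ± 0.33, adjusted p = 7.18e-11). The pDC values of both were near the level of 3 counts. Adora2b, an adenosine receptor, was at 31.3, 19.3 and 25.3 against 0.681, 2.84 and 0.434 CPM (-4.31 ± 0.41, adjusted p = 2.39e-08), and Fut7, which builds selectin ligands, at 127, 80.8 and 135 against 6.64, 10.4 and 6.07 CPM (-3.90 ± 0.30, adjusted p = 1.36e-08). Lmo1 was at 32.2, 24.8 and 33.1 against 1.53, 2.53 and 2.17 CPM (-3.92 ± 0.31, adjusted p = 4.21e-10), whereas its relative Lmo2 was among the higher genes.

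Of 28 tested myeloid genes, 20 were lower in pDCs and 6 higher, with a median log2 fold change of -1.61. S100a4 was at 420, 398 and 501 CPM in pre-cDCs and at 19.2, 27.8 and 39.0 CPM in pDCs (-3.98 ± 0.24, adjusted p = 5.91e-11). Csf1r, the receptor of macrophage colony-stimulating factor, was at 95.4, 67.4 and 107 against 6.81, 8.21 and 6.94 CPM (-3.63 ± 0.22, adjusted p = 8.38e-12). Neither gene overlapped between populations. Ms4a6b (-3.62 ± 0.25, adjusted p = 7.71e-11), Ms4a6c (-3.54 ± 0.17, adjusted p = 5.67e-13) and the galectin gene Lgals3 (-3.54) were lower too. The 6 higher members were Mpeg1, Ctsb, Cd68, Tyrobp, Ctsh and Ctsd, which include lysosomal proteases and the pore protein perforin-2, and 3 were called without pDC replicate 1. The call was also lost for Cd68 without pre-cDC replicate 2 (adjusted p = 0.0101) and for Ctsd without pre-cDC replicate 1 (0.0186) or 3 (0.0102). Anxa1 was at 225, 156 and 203 against 57.7, 37.3 and 20.4 CPM (-2.30 ± 0.56, adjusted p = 0.0133, and 3.8e-07 with the replicate block).

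Markers of other marrow cells were present and differed between libraries. The summed basophil, mast cell and eosinophil genes were at 112 to 848 CPM in pre-cDCs and 58.6 to 172 CPM in pDCs, with 0 of 7 called, or 4 lower with the replicate block. The basophil protease gene Prss34 was at 537, 443 and 64.2 CPM in pre-cDCs and at 105, 67.6 and 34.7 CPM in pDCs (adjusted p = 0.0534, and 0.00611 with the replicate block), and Mcpt8 at 247, 230 and 34.5 against 47.9, 29.7 and 16.5 CPM (adjusted p = 0.0427, and 5.2e-05 with the block). Pre-cDC replicate 3, low in these genes, had the highest S100a4 and Csf1r of all 6 libraries. Among the pre-cDC libraries it was also lowest in the sums of granulocyte granule genes (4578 CPM) and erythroid genes (4726 CPM). A link between these levels was not tested. Granulocyte granule genes summed to 4578 to 11920 against 3366 to 6851 CPM (0 of 15 called, 4 lower with the block), and erythroid genes to 4726 to 18490 against 6816 to 14260 CPM (0 of 10). Of 13 monocyte and macrophage genes 5 were lower, among them F13a1 at 92.2, 87.3 and 108 against 8.34, 10.1 and 10.4 CPM (-3.34 ± 0.19, adjusted p = 4e-12) and Fn1 at 67.3, 63.0 and 74.0 against 4.60, 5.69 and 7.38 CPM (-3.60 ± 0.22, adjusted p = 8.44e-12). C1qa, of tissue macrophages, was at 1.01 to 4.96 CPM. NK genes summed to 39.5 to 81.1 against 13.5 to 20.6 CPM (1 of 5 lower, Klrk1, or 2 with the block), T cell genes to 31.8 to 52.7 against 192 to 214 CPM (2 of 8 higher, Cd28 and Il7r, with 3 folds above 0, a median log2 fold change of -0.46 and most of the pDC sum from Il7r, at a mean of 152 CPM), and platelet genes to 23.7 to 110 against 12.6 to 24.5 CPM (0 of 5, or 1 lower with the block). Of the stem and progenitor genes, Cd34 and Kit were lower and Ly6a and Procr higher. The Procr call was lost in 5 of the 6 fits without 1 library, all but that without pre-cDC replicate 2 (adjusted p from 0.0125 to 0.0666), with counts thinned (0.0859), with DESeq2 size factors (0.0113) and in the 6 libraries alone (0.0145), and DESeq2 gave it no adjusted p. The part of other cells in the differences was not tested.

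Of 21 tested surface and antigen uptake genes of conventional dendritic cells, 10 were lower in pDCs and 3 higher (Cadm1, Clec12a and Sirpa). Clec7a (Dectin-1), a receptor for fungal glucan, was at 34.8, 44.6 and 32.1 CPM in pre-cDCs and at 4.09, 6.63 and 5.64 CPM in pDCs (-2.80 ± 0.27, adjusted p = 9.24e-09), and Naaa at 38.1, 29.3 and 39.2 against 6.13, 4.42 and 6.51 CPM (-2.64 ± 0.22, adjusted p = 1.03e-09). Both are genes that were low in every pDC library. Sirpa and Itgax belong to the gates. Cd209a was at 362, 312 and 593 against 274, 249 and 189 CPM and was not called (-0.83 ± 0.24, adjusted p = 0.0146), although its libraries did not overlap. Wdfy4, needed for cross-presentation, was at 41.5 to 59.7 and 44.5 to 47.7 CPM (adjusted p = 0.704).

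Receptors for cytokines and chemokines changed in both directions. Of 24 cytokine receptor genes, 8 were higher and 9 lower in pDCs. Il7r was at 24.3, 30.7 and 16.2 CPM in pre-cDCs and at 140, 158 and 159 CPM in pDCs (2.70 ± 0.19, adjusted p = 7.54e-11), and Csf2rb2, a beta chain of the IL-3 receptor, at 19.6, 25.3 and 20.3 against 135, 123 and 119 CPM (2.55 ± 0.17, adjusted p = 1.9e-11). The alpha chains that join the beta chains, Csf2ra and Il3ra, were lower (-1.71 and -1.07). Flt3, shared by both gates, was at 118 to 140 and 105 to 121 CPM (adjusted p = 0.404). Of 17 chemokine and related receptors, 5 were higher, among them Ccr9 (a gate gene), P2ry14, Cxcr3 and Ccr6, and 5 were lower (Cxcr4, Cx3cr1, Ccr2, Gpr183 and Ccr1). Cxcr3 was at 11.4, 12.9 and 9.46 against 120, 70.1 and 50.3 CPM (2.86 ± 0.26, adjusted p = 8.28e-09). Ccr7, which guides mature dendritic cells to lymph nodes, was at 2.03 to 7.61 and 3.24 to 3.90 CPM (adjusted p = 0.638).

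Of 22 tested signalling genes of the B cell receptor type, 6 were higher and 6 lower. Blnk, the linker of the B cell receptor, was at 29.3, 41.2 and 22.97 CPM in pre-cDCs and at 216, 193 and 168 CPM in pDCs (2.65 ± 0.19, adjusted p = 5.7e-11). Adaptors and kinases (such as Blnk, Fgr, Pik3ap1 and Syk) made up most of the higher members. The Fc receptor genes Fcgr1, Fcgr2b, Fcgr3 and Fcer1g were all lower, with Fcgr1 at 6.15, 9.92 and 3.04 against 0.681, 0.316 and 0.434 CPM (-3.46 ± 0.60, adjusted p = 6e-05). The Fcgr3 call was lost without any 1 library other than pre-cDC replicate 3 (adjusted p from 0.0272 to 0.0636), and the Fcer1g call without pDC replicate 2 or 3 or pre-cDC replicate 1 or 3 (0.0209 to 0.0323). Of 24 adhesion genes, 6 were higher and 6 lower. Jaml was at 84.6, 75.4 and 51.0 against 248, 249 and 226 CPM (1.78 ± 0.17, adjusted p = 5.87e-09), and Cd48 at 362, 250 and 482 against 130, 92.9 and 95.4 CPM (-1.77 ± 0.21, adjusted p = 3.2e-07). Cytosolic ribosomal protein genes hardly took part, with 4 of 81 higher and 5 lower, shares under the 11.3% and 10.3% of all genes.

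**Figure D4:**
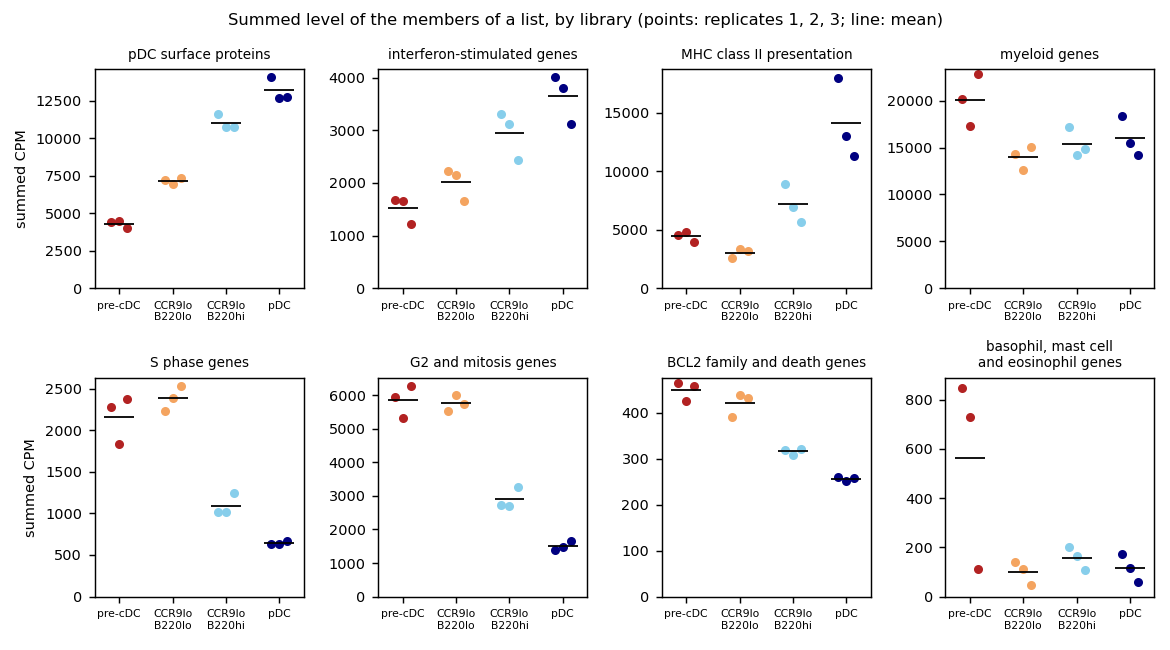
Summed CPM (vertical axis, from 0) of the members of 8 gene lists in the 12 libraries by population (horizontal axis), with replicates 1, 2 and 3 from left to right and the mean as a line. G2 and mitosis genes fell from 5335 to 6279 CPM in pre-cDCs to 1374 to 1654 CPM in pDCs, while pDC surface genes went from 4014 to 4468 CPM to 12710 to 14100 CPM, and the basophil list was high in pre-cDC replicates 1 and 2 alone.

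The genes called between pDCs and pre-cDCs were then read in the lo-hi and lo-lo libraries, which took no part in that contrast although they shared its estimate of the spread. Between lo-hi and lo-lo, 354 genes were higher in lo-hi (2.32% of 15265) and 431 were lower (2.82%). Of the 1728 genes higher in pDCs, 1642 (95.0%) had the same sign in lo-hi over lo-lo, against 50.8% of all genes, and 343 (19.8%) were called there. Of the 1579 genes lower in pDCs, 1453 (92.0%) had the same sign, against 49.2% of all genes, and 417 (26.4%) were called. None of the 3307 was called in the opposite direction. The wells of lo-hi and lo-lo were matched by the same 28 TFs, and the study sorted all populations from the same few mice. This pair therefore has other libraries, but it is not independent in animals or in how wells were assigned. The gates also set B220lo against B220hi in both pairs. How much of the shared sign comes from that was not tested. On a scale from 0 (pre-cDC) to 1 (pDC) of log2(CPM + 0.5), the median called higher gene lay at 0.361 in lo-lo and 0.768 in lo-hi, and the median called lower gene at 0.257 and 0.68 of the way.

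The lists did not step evenly along the 4 populations. G2 and mitosis genes summed to 5524 to 6023 CPM in lo-lo, within the range of pre-cDCs, and to 2693 to 3269 CPM in lo-hi, and 43 of the 52 were lower in lo-hi than in lo-lo. S phase genes summed to 1831 to 2379 CPM in pre-cDCs, 2238 to 2536 CPM in lo-lo and 1014 to 1242 CPM in lo-hi, with 33 of 43 lower in lo-hi than in lo-lo. The myeloid genes summed to 17250 to 22840 CPM in pre-cDCs, 12560 to 15030 CPM in lo-lo, 14250 to 17210 CPM in lo-hi and 14160 to 18420 CPM in pDCs, and 6 of 28 were lower and 3 higher in lo-hi than in lo-lo. S100a4 had a mean of 82.1 CPM in lo-lo and 43.5 CPM in lo-hi, against 439.7 CPM in pre-cDCs, and Kcne3, on no list, of 1.56 and 1.62 CPM against 23.1 CPM. Ms4a6c had means of 657 CPM in pre-cDCs, 358 CPM in lo-lo, 122 CPM in lo-hi and 56.5 CPM in pDCs. Bcl2 did not follow the order, with a mean of 109 CPM in lo-lo, above the 47.9 CPM of pre-cDCs, and 35.0 CPM in lo-hi. Upk1b was at 38.4 CPM in lo-lo and 3.60 CPM in lo-hi. H2-Aa was at 425 CPM in lo-lo, below 621 CPM in pre-cDCs, and at 1494 CPM in lo-hi. Cd4 was at 14.5 and 97.6 CPM, and Klk1b3 at 4.60 and 34.9 CPM, so that lo-lo was near pre-cDCs at these genes.

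**Figure D5:**
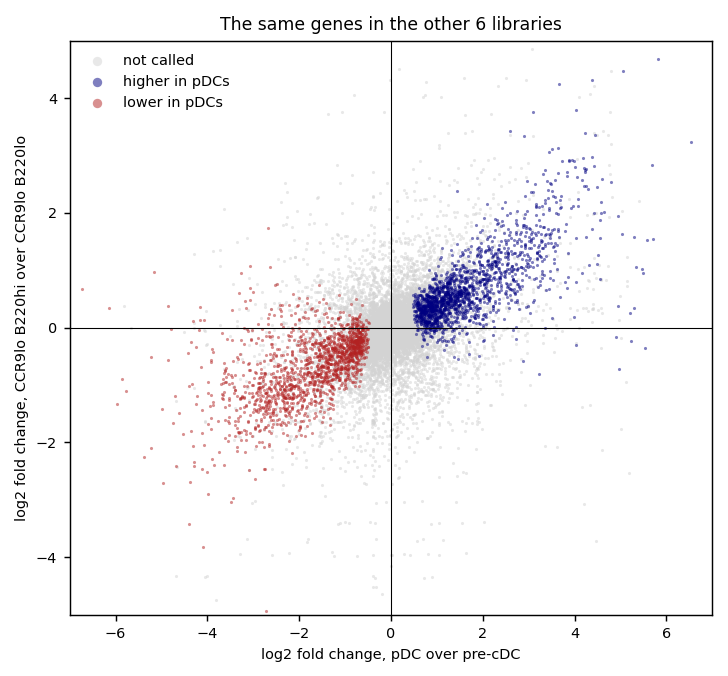
Log2 fold change of lo-hi over lo-lo (vertical axis) against that of pDCs over pre-cDCs (horizontal axis), 1 point per gene. Of the genes called higher in pDCs (blue) 95.0% lay above 0 on the vertical axis, and of those called lower (red) 92.0% lay below it.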

How the data were processed

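Bulk 3' RNA libraries (SCRB-seq) of 12 wells were analysed. Per the labels and the study's methods, the authors aligned reads with STAR 2.5.2b to mm10 through the zUMIs pipeline and deposited 1 table of raw counts per gene. The libraries carry unique molecular identifiers (UMIs), whose sequences zUMIs filtered for quality, but whether the deposited table counts UMIs or reads is not given in the sources used here, so the level of 3 counts covers counting error only and may be too low. The deposited counts were fitted without change in edgeR 4.0.16 (R 4.3.3) with TMM factors and a robust quasi-likelihood model of the 4 populations over all 12 wells, which share 8 residual degrees of freedom. The filter was a mean count of at least 1, and the threshold an adjusted p of 0.01. Fold changes are log2. Each SE was back-calculated as the absolute log2 fold change divided by the square root of the F statistic of the test. Gene positions came from GENCODE on GRCm38, the build of the counts, and promoters from RefSeq. The procedure was tested on simulated data.

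Populations came from the match of each well to the orders of 28 TFs and all deposited sample columns were used. Members and lists were chosen with earlier results of these data known. Named genes were the 12 largest called changes per direction with at least 20 CPM in the higher population, no overlap of libraries and a named symbol, and up to 4 called and 2 uncalled members of each list. Other list members, named to spell out a count, and the neighbouring and histone genes were named after their values were seen. Some genes that meet the rule are not reported here.

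Replicate numbers were matched with the populations, and the study gives 3 mice. Deviations from the population means correlated at 0.118 on average for 18 pairs of wells with the same number and at -0.0585 for 36 pairs with different numbers. For pDCs against pre-cDCs the same-number correlations ran from -0.15 to 0.118 and the different-number ones from -0.323 to 0.257. In this comparison the correlations therefore did not show that the numbers pair. Sex-linked genes set number 3 apart in all 4 populations. The fit with the number as a block is given where it changed a call. DESeq2 1.42.0, other filters, other size factors, thinned counts, left-out libraries and the deposited labels were alternatives.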

Additional observations from a re-analysis of the deposited data

How the results depend on the processing

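With populations as on the deposited labels, 0 genes were higher and 0 lower in pDCs, 0 were called between lo-hi and lo-lo, the smallest adjusted p of the main comparison was 0.513, and of 176 called genes examined singly 5 changed sign, at -0.36 (Fyb2), 0.0089 (Cdkn1a), -0.40 (Oasl1), -0.61 (Procr) and -0.038 (Ctsh) on the log2 scale, while the other 171 kept their sign and were not called. Every result therefore rests on the assignment of the wells. In every other setting all 3307 called genes that were tested kept their direction. Leaving out 1 of the 12 libraries at a time gave 1239 to 1722 higher and 1240 to 1825 lower genes in the main comparison. A fit of the 6 compared libraries alone gave 1312 higher and 1359 lower genes. It kept 79.9% of the 3307 calls, so part of the calls rests on the spread shared with the lo-lo and lo-hi libraries. Between lo-hi and lo-lo, leaving out 1 of those 6 libraries gave 379 to 691 genes against 785, with 379, 511 and 483 without lo-hi replicate 1, lo-hi replicate 2 and lo-lo replicate 3, and a cutoff of 0.05 gave 1314. Without replicate 3 of all populations, chosen after the sex-linked genes were seen, 1145 genes were higher and 1234 lower. DESeq2 called 1390 and 1572, and 2825 genes (85.4% of the 3307) were shared. With the replicate block, which treats wells of 1 number as paired, 2013 genes were higher and 1847 lower, 3305 of the 3307 were kept, and no named gene that was called lost its call. Beyond the added calls given in the report, it called Xist, gave 2 lower members of MHC class II presentation against 1, and moved no other list's count in either direction by over 1.5 times. Depth limited genes near 3 counts, and thinning to the smallest total left 1345 higher and 1396 lower genes.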
